A study of Mus musculus with 12 samples.

Results

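The 10 genes described here make and organise melanin in pigment cells of the mouse eye: *Tyr*, *Tyrp1* and *Dct* (the tyrosinase family), *Pmel* and *Mlana* (the fibril protein of the melanosome and its partner), *Oca2*, *Slc45a2* and *Slc24a5* (transporters), and *Gpr143* and *Trpm1*. They were chosen by name, as the rows of the deposited table with these symbols, and all 10 were found among the 28591 genes of the table. The measurements come from RNA sequencing of the retinal pigment epithelium (RPE), the pigmented cell layer behind the photoreceptors. WT samples were from wild-type C57BL/6J mice and rd6 samples from mice homozygous for the *rd6* allele of *Mfrp* (Mfrp rd6/rd6), with 6 samples of each, all at 1 mo of age, and each sample combined the RPE of both eyes. *Mfrp*, the membrane frizzled-related protein that the *rd6* allele disrupts, was measured in WT libraries 1 to 6 at 45442, 43233, 38949, 30132, 39039.6 and 43333 normalized counts, and in rd6 libraries 1 to 6 at 25491, 27070.0, 27137, 29732, 20442 and 25413. The highest of the rd6 values lay below the lowest of the WT values (log2 fold change -0.63, SE 0.11, limma adjusted p = 0.00126). Over all genes tested 5.67% had every rd6 library below every WT library, and 7 of 14 RPE markers fell. The order of *Mfrp* is therefore no check of the labels. The *rd6* allele is a splice-site mutation, so *Mfrp* transcripts were still counted in rd6 mice, and exons of *Mfrp* overlap those of neighbouring genes, which leaves the division of reads between them uncertain. The study kept some rd6 animals on an albino background with a mutant *Tyr*, and the labels of these samples do not say which background the rd6 mice had, so that the *rd6* allele and strain cannot be told apart. Mice of both sexes were used. RPE taken from an eyecup can carry choroid, which holds melanocytes with the same genes. In such bulk samples fewer cells of a type and less RNA per cell cannot be told apart.

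Melanin is built in a dedicated organelle, the melanosome. PMEL forms the fibrils on which pigment is laid down, tyrosinase turns tyrosine into dopaquinone, and TYRP1 and DCT act on later intermediates of eumelanin. OCA2, SLC45A2 and SLC24A5 carry ions and keep the organelle at a pH and composition in which tyrosinase works, and GPR143 is a receptor of the melanosome membrane that limits melanosome size. In the RPE most melanin is made before birth and shortly afterwards, so that adult tissue holds melanosomes while it goes on transcribing many of these genes. The factor MITF binds the motif TCATGTG, known as the M-box, in promoters of pigment genes.

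The M-box was sought in the RefSeq promoter windows (GRCm38.p6) of these genes, from 250 bases before to 50 after a transcription start, since it is the best-known sequence that pigment gene promoters share. Of the 10 genes, 6 had a window, and *Pmel*, *Mlana*, *Slc45a2* and *Gpr143* had none. TCATGTG stood on either strand in 5 of the 7 windows of these 6 genes, 1 each of *Tyr*, *Tyrp1*, *Dct*, *Trpm1* and *Slc24a5*, against 1239 of 32851 windows of all genes (3.77%). The E-box CACGTG, which reads the same on both strands and is not contained in TCATGTG, stood in 1 of the 7 windows, that of *Trpm1* at its second start, against 2349 windows of all genes (7.15%). Each is shown within 29 bases, and distances are from the first base of the motif to the start. The motif began 22 bases before the start in *Tyr* (shown: chr7:87493517-87493545, minus strand), 47 bases before it in *Tyrp1* (chr4:80834155-80834183, plus strand) and 142 bases before it in *Trpm1* (chr7:64153682-64153710, plus strand). *Dct* held a match 151 bases before the start (chr14:118052380-118052408, minus strand) and another 232 bases before it (chr14:118052461-118052489, minus strand). In *Slc24a5* (chr2:125068103-125068131, plus strand) it began 13 bases before the start. Starts are those of RefSeq. That of *Tyrp1* lies 90 bases downstream of the GENCODE start of the gene given below, so that the bases shown are within the GENCODE gene. All are written 5′ to 3′ on the strand of the gene, with the motif or its reverse complement CACATGA in capitals.
Tyr: gaaaaagttagTCATGTGctttgcagaag
Tyrp1: tggggagggagTCATGTGctgcctagtag
Dct, near match: tgcacttagggTCATGTGctaacaaagag
Dct, far match: cttggctgggaCACATGAgcccaataaag
Trpm1: ccaaatcctcaTCATGTGcccaccccaaa
Slc24a5: aggagactgctCACATGAttcagcataag
The letters are a description of the reference genome. Of the 5 genes that hold them, *Dct* was called higher in rd6, and *Tyr*, *Tyrp1*, *Slc24a5* and *Trpm1* were not called.

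The deposited values are read counts per gene divided by a size factor of the library, called normalized counts below. WT libraries held between 29218135 and 33152725 reads on genes and rd6 libraries between 28907262 and 32336530, so that each of the 10 genes rested on at least 683 reads in every library. A group of 3 libraries stood apart from the rest. *Krt5*, a keratin of stratified epithelia, was at 63798 in WT replicate 4, at 35506 in rd6 replicate 5 and at 19610.5 in rd6 replicate 1, and at 0 to 5413 in the other 9. *Krt12*, a keratin of the cornea, was at 69564 in WT replicate 4, at 5990 in rd6 replicate 1 and at 1216 in rd6 replicate 5. It was at most 134 in the other 9. *Pax6*, a factor of retina, cornea and ciliary body, was highest in the same libraries (4507, 2517 and 2092, against at most 1265 in the others), and results are given below without them. Of the RPE markers, 0 of 14 rose and 7 fell in rd6 (*Rpe65*, *Lrat*, *Rgr*, *Rdh10*, *Rlbp1*, *Kcnj13* and *Mertk*), and 14 of 15 markers of microglia and macrophages rose, with a median log2 fold change of 3.44 over the 15.

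Among the 10 genes, *Dct* and *Gpr143* were higher and *Slc45a2* was lower in rd6 RPE, and the other 7 were not called. A gene was called at an adjusted p-value below 0.05 from limma over 17768 genes, those averaging 10 or more normalized counts. Over all of these genes 11.4% were called higher, 11.6% lower and 23% in either direction, and the 3 of 10 found here lie near that share. Of the 10 genes 8 had a positive log2 fold change, and their median was 0.29, against 0.005 over all genes tested. *Slc45a2* was the only 1 of the 10 whose WT and rd6 libraries did not overlap, where 5.77% of all genes tested had every rd6 library above every WT library and 5.67% had every rd6 library below (11.4% together). The 10 genes together took 0.385% to 0.553% of the reads of a WT library (median 0.423%) and 0.521% to 0.675% in rd6 (median 0.609%), and *Dct* alone made up 39.9% to 43.7% of these reads in WT and 43.7% to 54.1% in rd6.

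**Figure D1:**
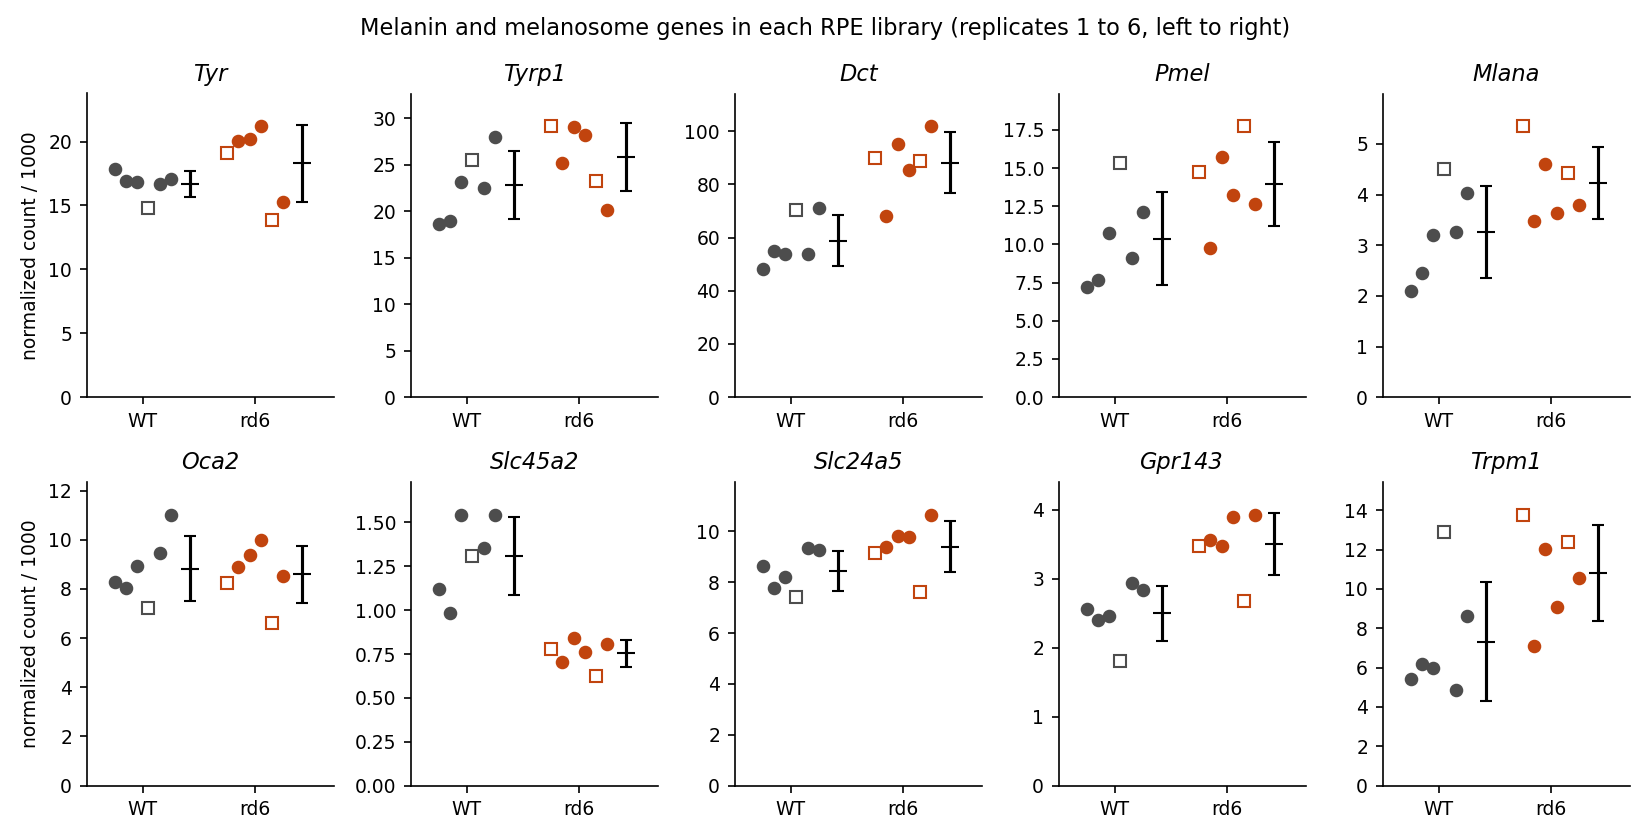
Normalized count divided by 1000 (y axis, from 0) of each of the 10 genes in the 6 WT (grey) and 6 rd6 (orange) libraries, in replicate order from left to right. Black bars are the mean with its SD, and open squares mark the 3 libraries highest in *Krt5*. *Slc45a2* is the gene whose groups do not overlap, with WT between 984 and 1545 and rd6 between 628 and 844.

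*Tyr* encodes tyrosinase, the enzyme that starts melanin synthesis, and lies on chromosome 7 (87424771 to 87493512, minus strand, GRCm38). Its WT libraries 1 to 6 held 17847, 16954.5, 16864, 14813, 16670.1 and 17056 normalized counts, and rd6 libraries 1 to 6 held 19124, 20062, 20183, 21219, 13882.5 and 15256. In rd6, 4 libraries lay above the highest WT library and 1 lay below the lowest, so that the groups overlapped. The difference was not called (log2 fold change 0.12, SE 0.10, 95% interval -0.11 to 0.34, limma adjusted p = 0.449).

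*Tyrp1*, whose product acts downstream of tyrosinase and stabilises it, lies on chromosome 4 (80834123 to 80851719, plus strand). WT libraries held 18669, 18905, 23195, 25556, 22518 and 28006, and rd6 libraries 29174, 25155, 29034.5, 28255, 23276.5 and 20160.4. The highest rd6 libraries were only slightly above the highest WT library. The log2 fold change of 0.18 (SE 0.12, 95% interval -0.08 to 0.44) was not called (limma adjusted p = 0.302).

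*Dct* encodes dopachrome tautomerase and lies on chromosome 14 (118012790 to 118052244, minus strand). It had 48293, 55113, 53943, 70476, 53955 and 71015 normalized counts in WT libraries 1 to 6 and 89864, 68257.5, 95169.9, 85298, 88919 and 101961 in rd6 libraries 1 to 6. All rd6 libraries except replicate 2 lay above the highest WT library. *Dct* rose 1.51-fold (58799 ± 9556 in WT and 88245 ± 11378 in rd6, SD, n = 6 each; log2 fold change 0.59, SE 0.12, limma adjusted p = 0.00374). Across the other settings of the analysis its adjusted p-value ran from 7.68e-06 to 0.0136, and without the 3 libraries highest in *Krt5* the log2 fold change was 0.63 (limma adjusted p = 0.00656).

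Relative to *Dct*, both other enzymes of the family were lower in rd6. The log2 ratio of *Tyrp1* to *Dct* in WT libraries ran from -1.54 to -1.22 and in rd6 libraries from -2.34 to -1.44, with all 6 rd6 libraries below the WT median. The means differed by -0.41 (SE 0.14; exact permutation test over 924 splits, two-sided p = 0.00649, 0.0152 after adjustment over the 7 ratios tested, n = 6 per group). For *Tyr* to *Dct* the means were -1.80 and -2.28, a difference of -0.47 (SE 0.20; exact permutation test, p = 0.0346, adjusted 0.0485). That call was lost, with adjusted p-values of 0.0697 to 0.112 in the exact permutation test, when any of 8 libraries was left out (WT replicates 1, 2, 3 and 5 and rd6 replicates 1, 3, 5 and 6). Without the 3 libraries highest in *Krt5* neither ratio passed, with differences of -0.42 for *Tyrp1* to *Dct* (exact permutation test, adjusted p = 0.0556) and -0.47 for *Tyr* to *Dct* (adjusted p = 0.0778). The log2 ratio of *Tyr* to *Tyrp1* averaged -0.44 in WT and -0.50 in rd6, a difference of -0.07 that did not pass (SE 0.13; exact permutation test, adjusted p = 0.634). It turned to 0.01 without WT replicate 1.

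*Pmel* and *Mlana* encode the fibril protein of the early melanosome and a small membrane protein that helps PMEL mature. *Pmel* (chromosome 10, 128704195 to 128720238, plus strand) was at 7243, 7646, 10762, 15304, 9140.5 and 12131 in WT libraries 1 to 6, against 14749, 9796, 15698, 13230.3, 17753 and 12657 in rd6 libraries 1 to 6. WT replicate 4 was the highest WT library and lay above 4 of the rd6 libraries. The log2 fold change of 0.46 (SE 0.19, 95% interval 0.05 to 0.86) missed the threshold (limma adjusted p = 0.0968). Exons of *Pmel* overlap exons of *Cdk2* and *Dgka* on the other strand, and its reads are uncertain there: the study's methods name standard parameters of Rsubread, whose default counts without strand, and say nothing further on strand.

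*Mlana* (chromosome 19, 29697824 to 29708634, plus strand) was measured in WT libraries 1 to 6 at 2099.5, 2458.5, 3202, 4498, 3269 and 4024, and in rd6 libraries at 5354, 3488, 4613, 3644, 4429 and 3803. As with *Pmel*, WT replicate 4 was the highest of its group and the lowest rd6 library was replicate 2, but the highest rd6 library was replicate 1 for *Mlana* and replicate 5 for *Pmel*. The log2 fold change was 0.41 (SE 0.17, 95% interval 0.03 to 0.78, limma adjusted p = 0.115). The log2 ratio of *Pmel* to *Mlana* averaged 1.67 ± 0.12 in WT and 1.72 ± 0.21 in rd6 (SD, n = 6 each), a difference of 0.05 (SE 0.10; exact permutation test, adjusted p = 0.634) that was -0.01 without rd6 replicate 5.

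Of the 3 transporters, only *Slc45a2* was called, and the ratios between them tested whether it moved differently from the others. *Slc45a2* (chromosome 15, 11000721 to 11029233, plus strand) encodes a sugar and proton transporter of the maturing melanosome. It held 1121, 984, 1545, 1306, 1356 and 1540.0 normalized counts in WT libraries 1 to 6 and 779, 704, 844, 761, 628 and 806 in rd6 libraries 1 to 6. The highest rd6 library was below the lowest WT library. *Slc45a2* fell 1.72-fold, from 1309 ± 225 to 754 ± 77.5 (SD, n = 6 each; log2 fold change -0.78, SE 0.11, 95% interval -1.03 to -0.54, limma adjusted p = 0.000327). It was called lower in each of the 25 other settings, with adjusted p-values from 6.45e-10 to 0.00288 and a log2 fold change of -0.73 without the 3 libraries highest in *Krt5*.

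*Oca2* (chromosome 7, 56239760 to 56536518, plus strand), which encodes the anion channel protein known as P, showed no such fall. WT libraries held 8268, 8026, 8944.6, 7211, 9469 and 11024, and rd6 libraries 8223, 8872.5, 9364, 9982, 6626 and 8514. The values interleave, and the log2 fold change was -0.04 (SE 0.11, 95% interval -0.28 to 0.20, limma adjusted p = 0.847). It was 0.01 without the 3 libraries highest in *Krt5*.

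*Slc24a5* (chromosome 2, 125068124 to 125088677, plus strand) encodes a potassium-dependent sodium and calcium exchanger of pigment cells. WT libraries held 8627, 7768, 8226, 7419, 9352 and 9282, and rd6 libraries 9135, 9398, 9818, 9765.4, 7629.7 and 10663. All rd6 libraries except replicate 5 were above the WT median, and the log2 fold change was 0.15 (SE 0.08, 95% interval -0.03 to 0.33, limma adjusted p = 0.208). Without rd6 replicate 5 it was 0.21 and passed the threshold (limma adjusted p = 0.046). Exons of *Slc24a5* overlap those of *Myef2* on the other strand.

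*Slc45a2* was lower in rd6 relative to both other transporters. Its log2 ratio to *Slc24a5* ran from -2.98 to -2.41 in WT and from -3.74 to -3.54 in rd6, without overlap, and the means differed by -0.94 (SE 0.10; exact permutation test, p = 0.00216, the smallest that 924 splits allow, adjusted 0.00758). Its log2 ratio to *Oca2* ran from -3.03 to -2.46 in WT and from -3.71 to -3.40 in rd6, also without overlap, and the means differed by -0.75 (SE 0.11; the same smallest p in the exact permutation test). *Oca2* itself was slightly lower relative to *Slc24a5*, by -0.19 (SE 0.07; exact permutation test, p = 0.0152, adjusted 0.0265), a call that was lost without rd6 replicate 1, 5 or 6 (adjusted p = 0.0606 to 0.072) and without the 3 libraries highest in *Krt5* (adjusted p = 0.0778 by the exact permutation test).

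**Figure D2:**
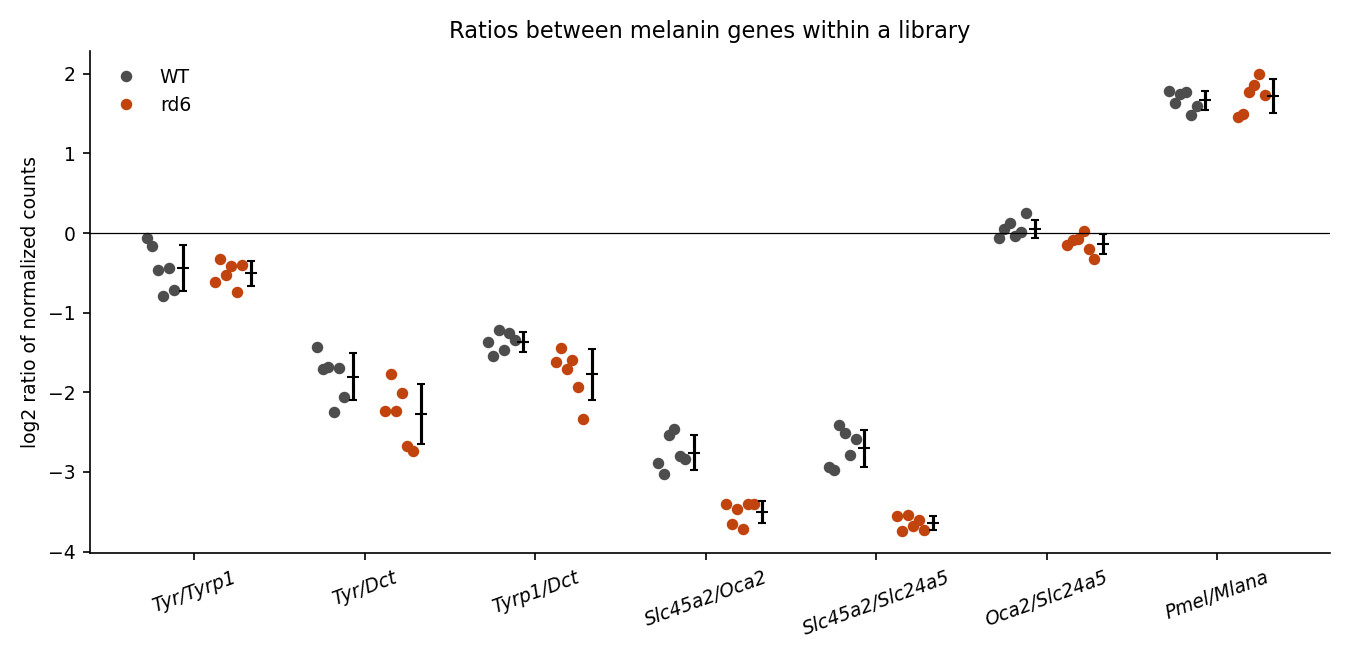
Log2 ratio of normalized counts between 2 genes within a library (y axis) for the 7 pairs tested, with WT in grey, rd6 in orange, 1 point per library and black bars for the mean with its SD. Both ratios of *Slc45a2* separate the groups, whereas the rd6 points of *Tyr*/*Tyrp1* and *Pmel*/*Mlana* lie among the WT points or around them.

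*Gpr143* lies on the X chromosome (152781921 to 152808646, plus strand) and encodes the receptor that is mutated in ocular albinism. WT libraries 1 to 6 held 2554, 2405, 2464, 1802, 2938 and 2835, and rd6 libraries 3476, 3555, 3472, 3901, 2683 and 3930.5. All rd6 libraries except replicate 5 lay above the highest WT library. *Gpr143* rose 1.41-fold (2499.8 ± 401 to 3503 ± 451, SD, n = 6 each; log2 fold change 0.49, SE 0.12, limma adjusted p = 0.00999). *Xist*, a marker of female mice, was at 21004 and 18183 in WT replicates 3 and 4 and at 13507 and 10783 in rd6 replicates 1 and 2, and at most 57.6 in the other 8, and with sex, read from *Xist* and *Ddx3y*, as a term the log2 fold change of *Gpr143* was 0.49 (limma adjusted p = 0.00937).

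*Trpm1* (chromosome 7, 64153835 to 64269775, plus strand) encodes a cation channel of pigment cells and of ON bipolar cells of the retina, and hosts the microRNA gene *Mir211*. WT libraries held 5400.2, 6204, 5991, 12880.0, 4868 and 8632, and rd6 libraries 13786, 7081, 12038, 9063, 12368 and 10579. All rd6 libraries lay above the WT median, but WT replicate 4 was higher than all of them except replicate 1. It had the highest point estimate of the 10 genes, a log2 fold change of 0.61 (SE 0.23, 95% interval 0.12 to 1.11), and missed the threshold (limma adjusted p = 0.0714). Without the 3 libraries highest in *Krt5* it was called (0.64, limma adjusted p = 0.0257), and likewise without rd6 replicate 2 (0.73, limma adjusted p = 0.041). The exons of *Trpm1* overlap those of the unnamed gene *Gm44722* on the other strand.

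The number of genes called higher depended on WT replicate 4. Without it 5 of the 10 were called higher, where 13.7% of all genes tested were called higher and 12.9% lower in the same fit, as *Pmel* (log2 fold change 0.58, limma adjusted p = 0.0206), *Mlana* (0.51, limma adjusted p = 0.0353) and *Trpm1* (0.79, limma adjusted p = 0.00606) joined *Dct* and *Gpr143*. Without all 3 libraries highest in *Krt5*, 3 genes were called higher (*Dct*, *Gpr143* and *Trpm1*) and *Slc45a2* was called lower, against 10.8% and 11.6% of all genes.

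Within a genotype, some of the 10 genes rose above their mean in libraries where others lay below it. WT replicate 4 was the highest WT library for *Pmel*, *Mlana* and *Trpm1*, at 0.61, 0.51 and 0.90 above the WT mean on the log2 scale, and the lowest for *Tyr*, *Oca2*, *Slc24a5* and *Gpr143*, at -0.17, -0.28, -0.18 and -0.46. In rd6 replicate 5 the same 4 genes were again the lowest of their group, at -0.38, -0.36, -0.29 and -0.37, together with *Slc45a2* at -0.26, while *Pmel* was the highest at 0.37. The RPE gene *Rpe65* was also lowest of its group in these libraries, at 131906 in WT replicate 4 and 74330.5 in rd6 replicate 5. In rd6 replicate 1, the third library high in *Krt5*, *Tyr*, *Oca2* and *Slc24a5* were near the rd6 mean (0.08, -0.05 and -0.03), where *Mlana* and *Trpm1* were the highest of their group (0.36 and 0.38). *Rpe65* was low there too, at 78634, though not the lowest of its group. The part of other tissue in these values was not tested.

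**Figure D3:**
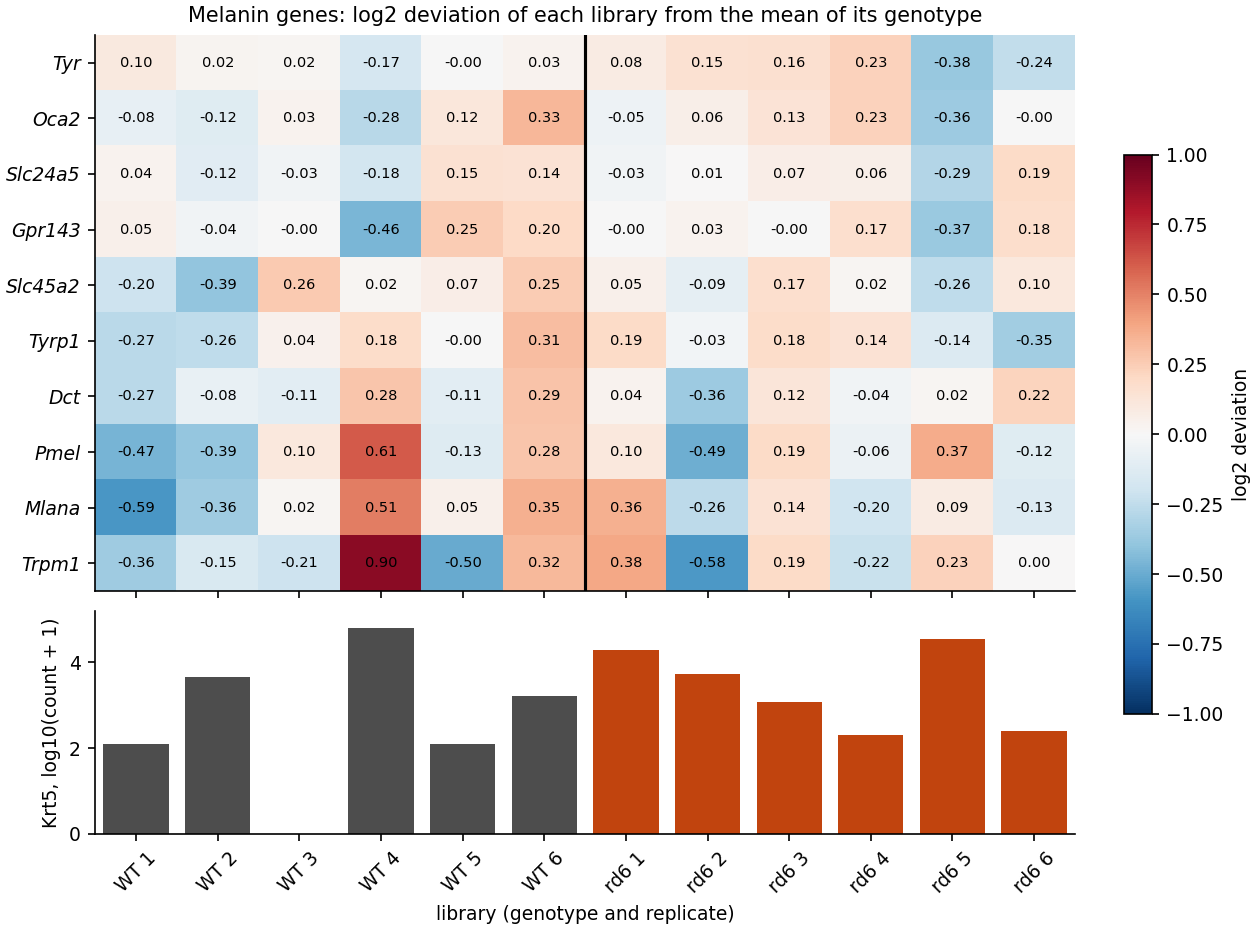
Upper panel, log2 deviation of each library from the mean of its genotype for the 10 genes (rows) in the 12 libraries (columns), red above and blue below the mean, with WT left and rd6 right of the black line. Lower panel, *Krt5* in the same libraries as log10 of the count + 1. In WT replicate 4, which has the tallest *Krt5* bar, *Pmel*, *Mlana* and *Trpm1* are 0.51 to 0.90 above their mean and *Gpr143* is at -0.46.

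In WT the ratio of the highest to the lowest library was 2.65 for *Trpm1*, 2.14 for *Mlana* and 2.11 for *Pmel*. That was more than in 97.7%, 96.2% and 96.1% of the 5493 genes that averaged 1000 or more, whose median ratio was 1.27. *Tyr*, at 1.20, and *Slc24a5*, at 1.26, lay close to that median. In rd6 *Trpm1* (1.95) and *Pmel* (1.81) again had the widest ranges of the 10, and *Slc45a2* the narrowest, at 1.35.

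Per kilobase of exon sequence the order of the 10 genes was the same in both genotypes. In WT *Dct* stood at 9974 ± 1621 normalized counts per kb (SD, n = 6), followed by *Tyrp1* at 8065 ± 1296, *Pmel* at 4525 ± 1328 and *Slc24a5* at 3625 ± 339. *Mlana* (3083 ± 858 per kb), *Tyr* (2350 ± 142) and *Oca2* (2228 ± 335) were intermediate, and *Gpr143* (1253 ± 201), *Trpm1* (497 ± 204) and *Slc45a2* (439 ± 75.3) were lowest. The WT ranges of neighbours in that order overlapped except between *Oca2* and *Gpr143* and between *Gpr143* and *Trpm1*. In rd6 *Dct* was at 14969 ± 1930 per kb and *Slc45a2* at 253 ± 26. The lengths are of all annotated exons of a gene joined, 14.7 kb for *Trpm1*, so that genes with many isoforms are placed too low if the RPE uses short ones.

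The profile of *Slc45a2*, the called gene with the largest change, was set beside those of 12864 genes averaging 100 or more, by the root mean square difference of log2 values over the 12 libraries, each centred on its WT mean. The 5 nearest were *Lrp2* (0.152), *Abca1* (0.168), *Gstm7* (0.179), *Lmod1* (0.186) and *Plbd1* (0.188), where the median gene was at 0.609. *Lrp2*, which encodes the endocytic receptor megalin, averaged 8165 in WT and 4762 in rd6, and *Abca1*, a cholesterol exporter, 4375 and 2825. Their log2 fold changes of -0.78 and -0.63 lie on the side of *Slc45a2* by the way they were chosen.

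Beyond the 10 genes, 58 genes of melanosome biology were listed, and 57 of them passed the filter. Of these, 6 were called higher and 7 lower (10.5% and 12.3%, near the 11.4% and 11.6% of all genes), and the median of their log2 fold changes was -0.02. The groups did not overlap for 9 of the 57, against 11.4% of all genes tested. Without WT replicate 4 the counts were 8 higher and 12 lower, beside 13.7% and 12.9% of all genes, and without the 3 libraries highest in *Krt5* they were 9 and 8, beside 10.8% and 11.6%. The lists below are short, and their counts stand beside the same 11.4% higher and 11.6% lower of all genes.

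In melanosome transport, *Myo5a* had the smallest adjusted p-value of all listed genes. *Myo5a*, the motor that carries melanosomes along actin in melanocytes, fell 1.93-fold, from 3694 ± 368 to 1911 ± 75 normalized counts (SD, n = 6 each; log2 fold change -0.95, SE 0.06, limma adjusted p = 4.23e-07). Its rd6 libraries ran from 1819 to 1992 and its WT libraries from 3292 to 4221. Of the 11 genes of this list 0 were called higher and 2 lower, the other being *Myrip* (-0.37, limma adjusted p = 0.0141), which links RAB27A to myosins in the RPE. *Rab27a*, the small GTPase that recruits them, whose exons overlap a pseudogene, had a log2 fold change of 0.29 (limma adjusted p = 0.0516) and *Myo7a*, the motor of RPE melanosomes, -0.20 (limma adjusted p = 0.162). *Mlph*, the melanocyte linker between RAB27A and MYO5A, was at -0.34 (limma adjusted p = 0.349).

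Among the 25 genes of melanosome biogenesis, 3 rose and 3 fell. The GTPases *Rab32* and *Rab38*, which act in the same delivery route to the melanosome, moved in opposite directions. *Rab32* rose, with 139 ± 34.5 in WT and 229 ± 20.9 in rd6 (SD over 6 libraries each; log2 fold change 0.75, limma adjusted p = 0.00387), and *Rab38* fell from 571 ± 111 to 384 ± 6.32 (-0.55, limma adjusted p = 0.00166), both without overlap. *Hps3*, a subunit of the complex BLOC-2, fell (-0.70, limma adjusted p = 0.000214), though its exons overlap those of *Cp* on the other strand, which leaves its reads uncertain. A fall was also called for *Kif13a*, a kinesin that positions endosomes near melanosomes (-0.33, limma adjusted p = 0.00123). *Bace2*, the protease that processes PMEL, rose (0.32, limma adjusted p = 0.00819). *Lyst* rose by 0.23 (limma adjusted p = 0.0414), a call lost without any of 9 libraries (WT replicates 1, 2, 3 and 5 and rd6 replicates 1 to 5, limma adjusted p = 0.0509 to 0.0928).

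Of 12 other melanosome genes, *Gpnmb* rose and *Cited1* fell. *Gpnmb*, a relative of PMEL that macrophages express too, measured 13720.5, 14786, 13880.5, 18842, 12657 and 21697 in WT, against 29050.0, 26455, 31982, 32226.5, 35963 and 35993 in rd6 (2.03-fold, log2 fold change 1.02, SE 0.13, limma adjusted p = 0.00013). The groups did not overlap. The summed microglia and macrophage markers ran from 15323 to 21703 in WT and from 30934 to 54348 in rd6. *Csf1r*, which was not called, made up most of the WT sum (12921 to 18698 in WT and 16200 to 20851 in rd6). The sum thus shows less change than most of these markers, whose median log2 fold change over the 15 was 3.44. The part of these cells in the rise of *Gpnmb* was not tested. *Cited1*, a transcriptional co-regulator of pigment cells, fell from 180.2 ± 38.5 to 74.6 ± 30.3 (SD, n = 6 each; log2 fold change -1.37, limma adjusted p = 0.00614). *Tspan10* and *Mfsd12* had log2 fold changes of 0.09 and 0.09 and were not called, and exons of *Mfsd12* overlap genes on the other strand.

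The transcription factors of pigment cells were mostly not called. *Mitf*, the main regulator of pigment genes, averaged 3105 ± 261 in WT and 2792 ± 239 in rd6 (SD, n = 6 each; log2 fold change -0.15, limma adjusted p = 0.133), and *Otx2*, a factor of RPE identity, had a log2 fold change of -0.18 (limma adjusted p = 0.22). Of the 9 tested, 2 were higher and 1 was lower. *Lef1*, the nuclear partner of β-catenin, rose from a low 39.3 ± 13.6 to 101 ± 30 (1.35, limma adjusted p = 0.00186). *Tfeb* rose by 0.21 (limma adjusted p = 0.0421) and *Sox9* changed by -0.34 (limma adjusted p = 0.0414). Exons of *Lef1* and *Otx2* overlap those of genes on the other strand, so that their reads are uncertain. *Tfeb* lost its call without the 3 libraries highest in *Krt5* (limma adjusted p = 0.128) and without any of WT replicates 1, 2, 3, 4 and 6 and rd6 replicates 1, 2 and 3 (limma adjusted p = 0.052 to 0.0939), and *Sox9* without any of WT replicates 1, 2, 3, 5 and 6 and rd6 replicates 1, 3, 5 and 6 (limma adjusted p = 0.0547 to 0.0919). *Tfec* had at most 16.5 normalized counts in a library and did not pass the filter.

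**Figure D4:**
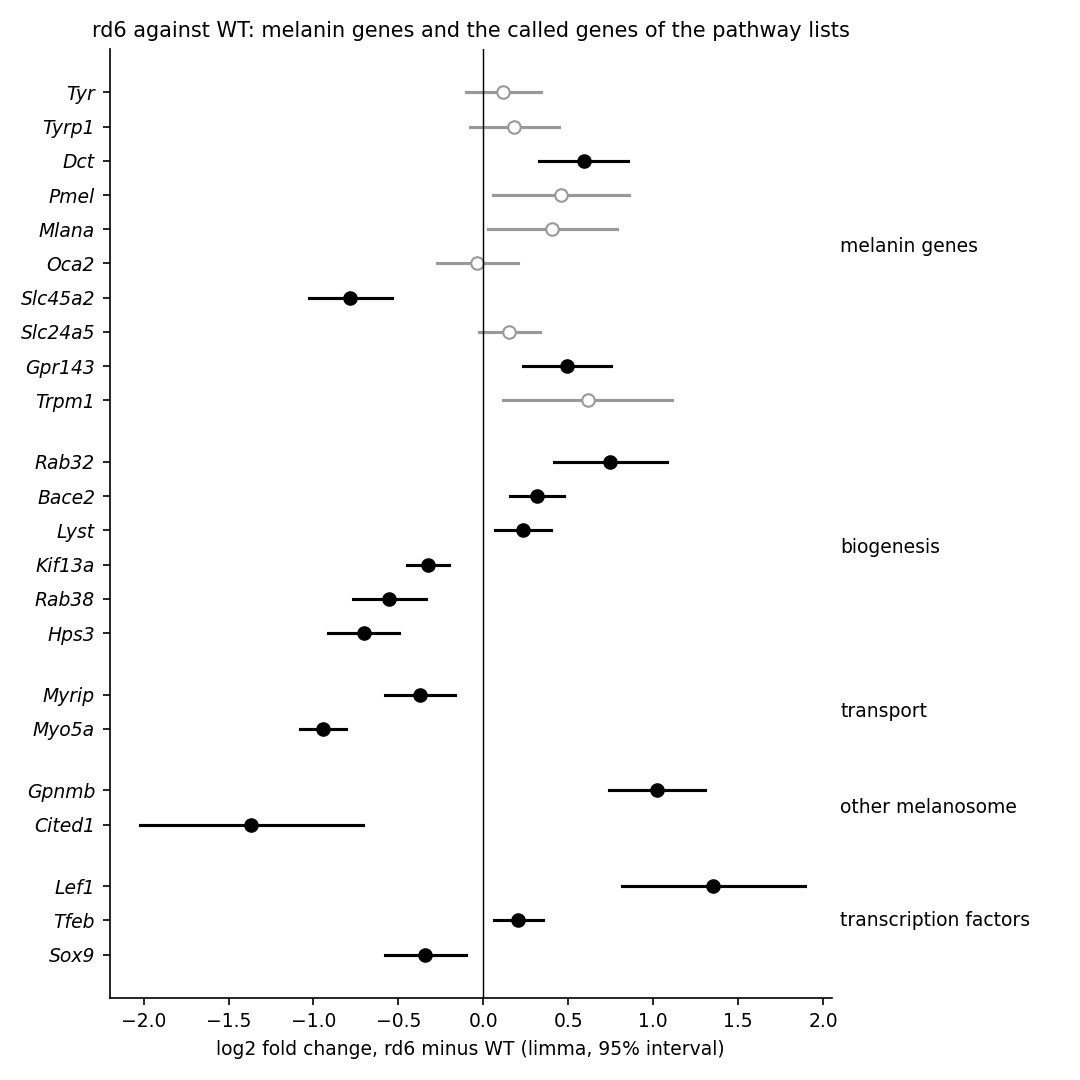
Log2 fold change, rd6 minus WT, and its 95% interval from limma (x axis) for the 10 melanin genes and the 13 called genes of the pathway lists (y axis), n = 6 libraries per genotype. Filled black points were called at an adjusted p-value below 0.05 and open grey points were not. *Slc45a2* at -0.78 and *Myo5a* at -0.95 lie on the left and *Dct* at 0.59 and *Gpnmb* at 1.02 on the right.

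Markers of the melanocyte, the other pigment cell of the eyecup, were measured beside these results. Of 10 markers 0 rose and 3 fell, among them *Sox10* and *Ednrb* (both by -0.64 on the log2 scale), and the sum of the 10 ran from 9246 to 10559 normalized counts in WT and from 6533 to 7461 in rd6, without overlap. *Sox10* made up most of that sum, at 6160 ± 770.2 in WT and 3960.4 ± 466 in rd6 (SD, n = 6 each). It was lowest of its group in WT replicate 4 (4771) and rd6 replicate 5 (3285), as *Rpe65* was. *Erbb3*, another of the 10, was instead highest in the libraries highest in *Krt5* (1148 in WT replicate 4, 760 in rd6 replicate 5 and 405 in rd6 replicate 1). Whether the sum follows melanocytes was not tested. *Pax3*, a factor of the melanocyte lineage, was at 12.4 to 36.3 normalized counts in WT and 1.81 to 21.6 in rd6, and *Mc1r*, the melanocortin receptor of melanocytes, at 5.92 to 16.4 over all libraries, where 3 reads are 2.71 to 3.32. Others of the 10 were well above that floor, such as *Kit* at 643 to 1256 and *Ednrb* at 603 to 1855. Some of the melanocyte markers, *Sox10* and *Cdh19* among them, are also markers of Schwann cells, of which 1 of 8 rose and 4 fell. Of 10 markers of endothelium, which is dense in the choroid, 8 rose and 0 fell, and their sum ran from 7451 to 14446 in WT and from 12544 to 28340.0 in rd6. Of 6 markers of fibroblasts, which the choroid also holds, 0 rose and 1 fell (*Pdgfra*, -0.88, limma adjusted p = 0.0123), with a median log2 fold change of -0.39 over the 6 and sums of 11526 to 17399.7 in WT and 6144 to 16714 in rd6 that overlapped. The 1 became 3 without rd6 replicate 1, and 2 without rd6 replicate 2 or without the 3 libraries highest in *Krt5*. The summed RPE markers ran from 1103210 to 1611410 in WT and from 732385 to 1046400 in rd6. Of 14 rod photoreceptor markers 0 rose and 5 fell, with a median log2 fold change of -0.90 over the 14, and their sum ran from 54049 to 96733 in WT and from 31074 to 80524 in rd6. The 5 became 3 with edgeR, 8 without WT replicate 1, 9 without WT replicate 5, 12 without rd6 replicate 5 and 11 without the 3 libraries highest in *Krt5*. The part of a shift in any of these cell types in the values of *Slc45a2*, *Myo5a*, *Dct* and *Gpr143* was not tested.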

How the data were processed

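Total RNA of 6 WT and 6 rd6 RPE samples was made into stranded libraries and sequenced as read pairs. According to the study's methods the reads were aligned to mm10 and counted with Rsubread at standard parameters, and the deposited signal of a gene in a library is its count of reads scaled by a size factor from DESeq2. Versions are not given in the sources used here. The authors also deposited log2 fold changes with standard errors, a Wald score, p-values and adjusted p-values of their own comparison, and a mean over libraries, none of which were used here. Each value was a whole multiple of the value of 1 read (100% of values, tolerance 1e-06), so that reads were recovered. Of 28596 entries, 5 repeats were dropped.

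The main test was limma 3.58.1 (R 4.3.3, eBayes with trend) on log2(normalized count + 1) over the 17768 genes that averaged 10 or more, and genotype was the only term, with Benjamini-Hochberg adjustment over all genes. Such fold changes understate the change of low genes. Ratios of 7 gene pairs were tested with an exact permutation test. Other settings were pseudocounts of 0.1 and 10, no filter and a stricter filter, TMM and median-ratio rescaling, edgeR 4.0.16 and DESeq2 1.42.0 on the recovered reads, the replicate number as a block, and each library left out. Leaving out the 3 libraries highest in *Krt5* and a term for sex were added after seeing the data. The tests were checked on simulated data. Exon lengths and coordinates are from GENCODE M21 (GRCm38) and promoter windows from RefSeq.

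The 10 genes and the lists were chosen with earlier results of these data known. Genes named are the 10, *Mfrp*, called or most changed genes of the lists, and the 5 genes nearest to *Slc45a2*. *Krt5*, *Krt12*, *Xist* and uncalled genes of the lists such as *Pax6*, *Rab27a*, *Mitf* and *Otx2* were named after their values were seen. Some list genes that this rule for naming selects are not reported here. The study calls the RNA-seq replicates independent and combined both eyes in a sample, while the labels number the samples without naming animals, so that p-values measure the spread between these samples. The 66 pairs of libraries differed by a chi-square per gene of at least 9.45, and none was counted as a copy. Depths and floors cover counting error only.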

Additional observations from a re-analysis of the deposited data

Results flagged for a closer look

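In 3 of the 62 groups of 6 libraries examined, 1 library stood far from the other 5, with a gap of more than 0.625 of the whole range, which chance gives in about 1 in 20 groups. *Gpr143* was 2683 normalized counts in rd6 replicate 5, where the other rd6 libraries held 3472 to 3930.5. Without that library its log2 fold change was 0.57, against 0.49 with it. *Rab38* was 792 in WT replicate 4 and 477 to 551 in the other WT libraries. *Bace2* was 6643 in rd6 replicate 6 and 5135 to 5392 in the other rd6 libraries. Both rd6 replicate 5 and WT replicate 4 are among the 3 libraries highest in *Krt5*.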

How the results depend on the processing

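The calls of *Dct* and *Gpr143* as higher and of *Slc45a2* as lower held in all 25 other settings run for genes. The count of the 10 genes called higher ran from 2 to 5 when each library was left out, with 5 reached without WT replicate 4, and the count called lower was 1 each time. *Oca2* had a log2 fold change of -0.092 to 0.037 in these runs and of 0.013 without the 3 libraries highest in *Krt5*. On the recovered reads edgeR with TMM called 1981 genes higher and 2085 lower, and DESeq2 2276 and 2433. Of the 57 listed genes, 6 were called higher with limma and 10 with edgeR and upper-quartile normalization, which moved the split of all calls from 2024 higher and 2062 lower to 2374 and 1583. With no filter on low values *Lyst*, *Tfeb* and *Sox9* were not called (limma adjusted p = 0.0606, 0.0661 and 0.0534), nor was *Sox9* with edgeR and upper-quartile normalization (adjusted p = 0.058). With a library left out 4 to 8 of the 57 listed genes were higher and 6 to 12 lower. In the same runs 1631 to 2428 of all 17768 genes tested were higher and 1593 to 2293 lower. Leaving out a library gave differences of -0.14 to 0.0071 for the log2 ratio of *Tyr* to *Tyrp1*, -0.58 to -0.38 for *Tyr*/*Dct*, -0.47 to -0.29 for *Tyrp1*/*Dct*, -0.22 to -0.15 for *Oca2*/*Slc24a5* and -0.0063 to 0.10 for *Pmel*/*Mlana*. Without the 3 libraries highest in *Krt5* they were -0.47 for *Tyr*/*Dct*, -0.42 for *Tyrp1*/*Dct* and -0.19 for *Oca2*/*Slc24a5*, none of them past the threshold. The causes were not tested.

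Replicate numbers did not pair the libraries (correlations of same-numbered deviations from -0.74 to 0.31). Under such a replicate block the fit called 1453 genes higher and 1489 lower, with the same 3 calls among the 10 genes and 4 higher and 5 lower among the listed genes. Among the listed genes, *Lyst*, *Myrip*, *Tfeb* and *Sox9* lost their calls under the block (limma adjusted p = 0.0601, 0.0586, 0.131 and 0.0856). Of the markers, 2 of rods and 2 of Schwann cells were then lower and 5 of endothelium higher. In the paired sign-flip test no ratio passed. Both *Slc45a2* ratios were lower in rd6 in 6 of 6 pairs and had the smallest p that 64 sign flips allow (exact test, p = 0.0312), which came to 0.109 after adjustment over 7 ratios, so that the test says nothing on their stability. Differences were -0.47 for *Tyr*/*Dct*, -0.41 for *Tyrp1*/*Dct*, -0.75 for *Slc45a2*/*Oca2*, -0.94 for *Slc45a2*/*Slc24a5* and -0.19 for *Oca2*/*Slc24a5*.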
